A study of Danio rerio with 28 samples.

Results

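Genes of the piRNA pathway and of meiosis were followed through single sorted cells of the zebrafish. Not all of these cells held a transcript of a germ cell marker gene. The genes were piwil1, piwil2, GTSF1L, sycp3 and dmc1, taken by name as 5 of the 1017 genes in the deposited table. Cells had been sorted one to a well from offspring of mz tdrd6a-/- mothers (labelled Tdrd6a-:-, called mutant below) and of wt mothers that carried the transgene kop::egfp-f-nos1-3'UTR, a germ cell GFP reporter. The stages were 3.5, 8 and 24 hours post fertilization (hpf), and for the wild type also 2 weeks post fertilization (2 wpf). Each library was a plate of wells.

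The wild type had 5 plates with 205 cells at 3.5 hpf, 4 plates with 101 cells at 8 hpf and 5 plates with 196 cells at 24 hpf. The mutant had 5 plates with 264 cells, 4 plates with 112 cells and 3 plates with 156 cells at the same stages. The 2 wpf fish were represented by 1 wild-type plate with 76 cells, so nothing at that stage was tested. The labels do not say whether plates came from separate clutches or animals, and p-values therefore measure only the spread between plates, which may be technical. The targeted gene itself, tdrd6a, was not analysed here.

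piRNAs are small RNAs of the germ line that guide Piwi proteins to transposon transcripts and to some mRNAs. In zebrafish piwil1 encodes Ziwi and piwil2 encodes Zili, the pair of Piwi proteins. GTSF1 proteins are small zinc finger partners of Piwi proteins in mouse and fly, and GTSF1L is named after them. In meiosis homologous chromosomes are held together by the synaptonemal complex, of which Sycp3 is a lateral element protein, and exchange DNA strands with the help of the meiosis-specific recombinase Dmc1. The symbols piwil1, piwil2, sycp3 and dmc1 matched a symbol table of the species, whereas GTSF1L matched none, so the zebrafish gene behind that name is uncertain and its role here is given by name only.

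A value in the table was a whole number with 0.1 added. The whole number is called transcripts below, and the files do not say if these are molecules or reads. The median cell had 424 of them across the listed genes (156 to 855), and group medians ran with stage from 339.5 (mutant) and 368 (wild type) at 3.5 hpf to 552.5 and 507 at 24 hpf, with 481.5 at 2 wpf. Intervals and floors cover counting error only. The smallest plates held 2, 4 and 6 cells. The germ cell genes germvasa, an RNA helicase, and germnanos3, a translational repressor, are listed with that prefix. At least 1 transcript of either was found in 26.8% of wild-type and 19.7% of mutant cells at 3.5 hpf, in 70.3% and 61.6% at 8 hpf and in 60.7% and 42.9% at 24 hpf, and was absent from the rest. At 2 wpf germvasa was found in 73 of 76 cells and germnanos3 in 1. The other genes with that prefix were found in fewer cells than germvasa. They were germca15b (0 cells), germgra (5), germdnd (7), germtdrd7 (23) and germdazl (31). A list of 12 somatic gonad genes had no member in the table, so that source of cells could not be checked. The 28 libraries listed the same 96 well barcodes.

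**Figure D1:**
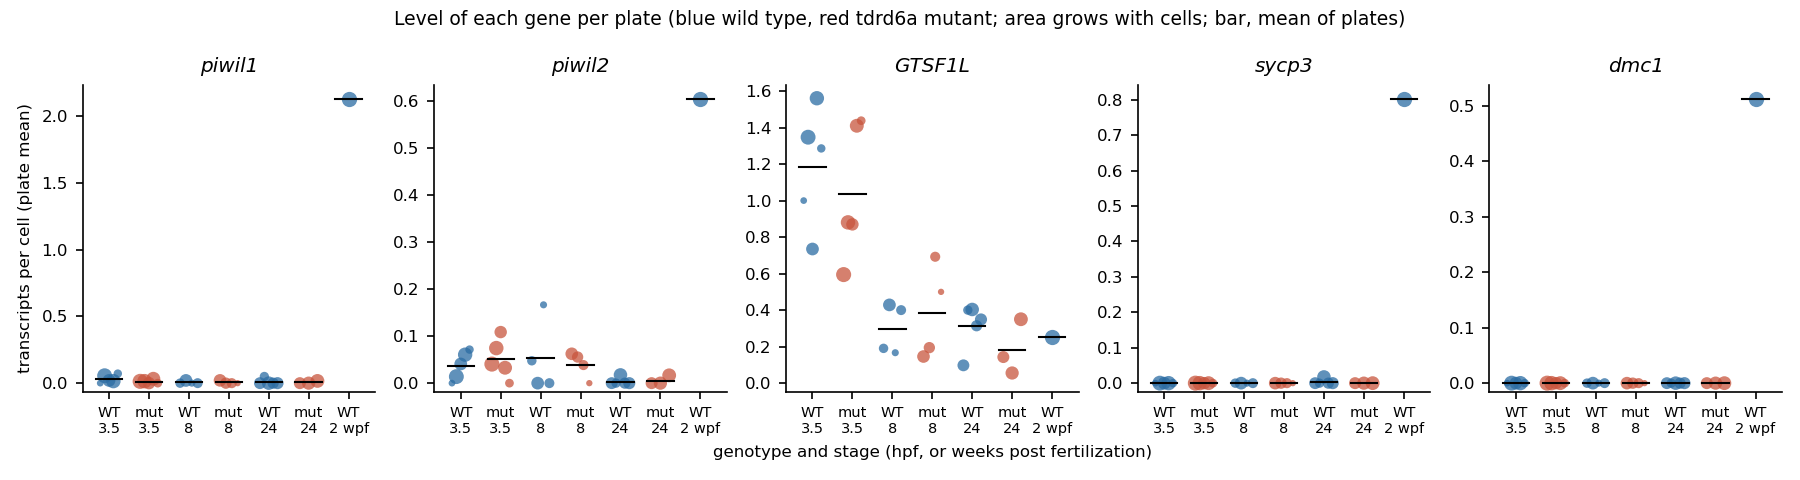
Transcripts per cell of each gene (vertical axis, plate mean) against genotype and stage (horizontal axis), with 1 point per plate whose area grows with its number of cells and a bar at the mean of the plates. GTSF1L was highest at 3.5 hpf, with plate means from 0.595 to 1.56, whereas piwil1, sycp3 and dmc1 were at or near 0 on every plate before the 2 wpf plate, which held 2.13, 0.803 and 0.513 transcripts per cell.

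GTSF1L was found at every stage and fell between the blastula (3.5 hpf) and the gastrula (8 hpf) in both genotypes. The 5 wild-type plates at 3.5 hpf held 1, 1.35, 0.735, 1.56 and 1.29 transcripts per cell. The 4 wild-type plates at 8 hpf held 0.190, 0.429, 0.167 and 0.4. Every wild-type plate at 3.5 hpf lay above every wild-type plate at 8 hpf. On the scale of log2(plate mean + 0.2) the level fell by 1.49 (SE 0.32), with an adjusted p of 0.000697 in a limma fit over 1000 genes. Of these genes 21.1% were called lower and 31.3% were called in either direction, so a call in this contrast was common.

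In the mutant the 3.5 hpf plates held 0.595, 0.881, 0.870, 1.41 and 1.44 GTSF1L transcripts per cell. At 8 hpf the mutant plates held 0.146, 0.194, 0.692 and 0.5. The groups overlapped by 1 pair of plates, since mutant plate 3 at 8 hpf lay above mutant plate 1 at 3.5 hpf. The level fell by 1.14 (SE 0.32) on the same log2 scale, with a limma adjusted p of 0.00721, in a contrast that called 18.7% of genes lower and 29.3% in either direction. The change did not differ between the genotypes beyond its error (log2 difference 0.35, SE 0.46, limma adjusted p = 0.995, with 0% of genes called and 4.9% below an unadjusted p of 0.05). With a pseudocount of 1 transcript in place of 0.2 the differences were −0.75 and −0.56, with limma adjusted p of 0.000278 and 0.00482.

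Mutant plate 1 at 8 hpf, whose 48 wells described as mutant were used, also held the highest sums of somatic markers at that stage. It had 4.71 muscle, 4.02 blood and 8.23 epidermis transcripts per cell, where the 8 muscle, 3 blood and 8 epidermis genes of the lists reached at most 0.5, 0 and 4.19 in a wild-type plate at 8 hpf. Without it the mutant level fell by 0.93, with a limma adjusted p of 0.0396. In bulk sums over a plate, fewer expressing cells and less RNA per cell cannot be told apart, and here the share of cells with a GTSF1L transcript moved as well, from 68.3% to 29.7% of wild-type cells and from 56.1% to 23.2% of mutant cells. Cells with 2 or more GTSF1L transcripts averaged 33.8% over wild-type plates at 3.5 hpf and 3.55% at 8 hpf.

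From 8 to 24 hpf no further change of GTSF1L passed the test. The wild-type plates at 24 hpf held 0.0976, 0.4, 0.404, 0.314 and 0.349 transcripts per cell, which overlapped the 8 hpf range. The log2 difference was 0.04 (SE 0.32, limma adjusted p = 0.969), where 28.3% of genes were called and the median of all genes shifted by 0.11. The mutant plates at 24 hpf held 0.143, 0.0556 and 0.35, with a log2 difference from 8 hpf of −0.57 (SE 0.37, limma adjusted p = 0.337, 17% of genes called). The genotype difference in this change was −0.62 (SE 0.49, limma adjusted p = 1, 0% of genes called and 4.1% below an unadjusted p of 0.05). The 2 wpf plate held 0.25 transcripts per cell, within the range of the 24 hpf plates. Those plates also held cells without germvasa or germnanos3, so the range is over unlike sets of cells.

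Ordered by the mean of plates, GTSF1L stood at 1.19 ± 0.32 transcripts per cell at 3.5 hpf in wild-type plates (SD, n = 5) and 1.04 ± 0.37 in mutant plates (n = 5). There followed 0.383 ± 0.259 in the mutant at 8 hpf (n = 4), 0.313 ± 0.126 in the wild type at 24 hpf (n = 5) and 0.296 ± 0.137 in the wild type at 8 hpf (n = 4). The mutant at 24 hpf was lowest at 0.183 ± 0.151 (n = 3), with the single 2 wpf plate just above it. Neighbours in this order overlapped in their plates, and the wide step in it was the one from 3.5 hpf to all later stages.

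The genotypes did not differ in GTSF1L beyond the spread between plates at any of the 3 stages. The log2 difference of mutant minus wild type was −0.18 (SE 0.30) at 3.5 hpf, 0.16 (SE 0.34) at 8 hpf and −0.45 (SE 0.35) at 24 hpf, each with a limma adjusted p of 1. These contrasts called 0.2%, 0% and 0.3% of 1000 genes, and 5.4%, 7% and 3.1% lay below an unadjusted p of 0.05. The mean over plates of the share of cells with a GTSF1L transcript was 59.6% ± 15 in mutant and 64.4% ± 11.9 in wild-type plates at 3.5 hpf. At 8 hpf it was 31.9% ± 18.8 against 26.1% ± 9.66, and at 24 hpf 15.8% ± 12.7 against 23.4% ± 9.68. Two-sided exact permutation tests over plates gave p = 0.667, 0.657 and 0.375, and 1 after adjustment over 1000 genes. The smallest p these designs allow are 0.00794, 0.0286 and 0.0179. No gene passed this test after adjustment (0% at each stage), and 8.2%, 1.3% and 2.6% of genes did so without it. With these smallest p a gene could pass after adjustment only if many genes reached them together, so the 0% says little. The SE of the level was larger than the difference at 3.5 and 8 hpf. Over all cells at 24 hpf a smaller share of mutant cells had germvasa or germnanos3, which was not tested, and plates of the genotypes overlapped. Cells with and without them numbered 13 and 29, 10 and 44, and 44 and 16 on the mutant plates. On the wild-type plates they numbered 11 and 30, 17 and 3, 48 and 9, 10 and 25, and 33 and 10. Summed muscle markers at 24 hpf ran from 0.867 to 5.06 transcripts per cell in mutant plates and from 0.829 to 6.05 in wild-type plates. Summed epidermis markers ran from 1.22 to 7.85 and from 2.03 to 5.54. Their part in the GTSF1L values was not tested over plates.

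**Figure D2:**
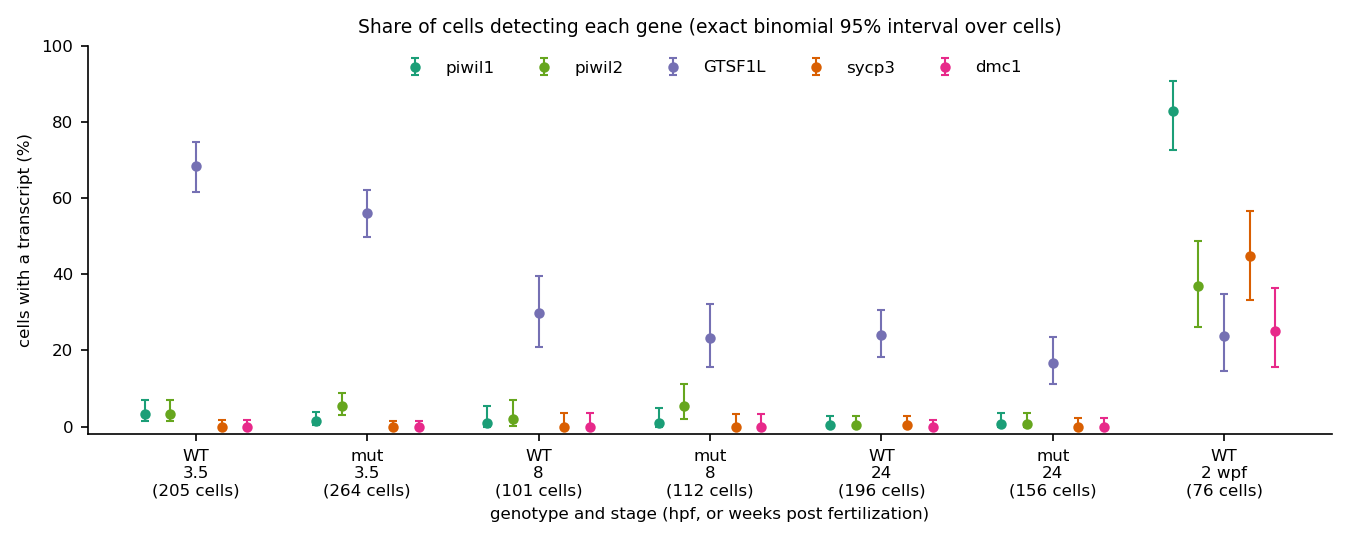
Percent of cells with at least 1 transcript of each gene (vertical axis) in the 7 groups (horizontal axis), with the exact binomial 95% interval over cells, which covers counting error only. GTSF1L was detected in 68.3% and 56.1% of cells at 3.5 hpf and in 16.7% to 29.7% at 8 and 24 hpf, and the other genes in at most 5.36% of cells before 2 wpf.

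Within plates, GTSF1L at 24 hpf was found mostly in cells that also carried germvasa or germnanos3. This split of the cells was added after the data had been seen. In the 8 plates of 24 hpf, 32.4% ± 10.4 of the cells with germvasa or germnanos3 had a GTSF1L transcript, against 5.58% ± 5.38 of the cells with neither (SD, n = 8). The share was higher in the marked cells of all 8 plates, by 26.9 percentage points. In the wild type 42 of 119 marked cells and 5 of 77 unmarked cells had it, and in the mutant 22 of 67 and 4 of 89. The unmarked cells were the deeper ones, with median depths of 589 against 464 transcripts (wild type) and 588 against 524 (mutant). At a common depth of 250 transcripts the shares were 19.7% and 2.55%. An exact two-sided sign-flip test over plates gave p = 0.00781, the smallest that 8 plates allow. After adjustment over 998 genes it was 0.211, so the split did not pass (0% of genes passed, and 8.92% were higher in marked cells at an unadjusted p of 0.05). With 8 plates a gene can pass this adjustment only if many genes reach the smallest p together. The 0% is therefore largely set by the number of plates. By size of the difference GTSF1L ranked 5 among the 998 genes, from which the 2 genes that define the split were left out.

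At the earlier stages the mean difference between marked and unmarked cells was smaller, but the change between stages did not pass over all genes. At 3.5 hpf the shares were 68.2% ± 17.4 in marked and 60.3% ± 12.5 in unmarked cells over 8 plates, and 5 of 8 plates were higher in marked cells (exact p = 0.0703, adjusted p = 0.9, 3.01% of genes higher in marked cells at an unadjusted p of 0.05). At 8 hpf the shares were 30.8% ± 16.7 and 16.8% ± 14.5 over 6 plates, with 4 of 6 plates higher (exact p = 0.188, adjusted p = 0.84, background 2.51%). The mean difference was 26.9 points at 24 hpf and 7.95 points at 3.5 hpf, 18.9 points apart, with an exact permutation p of 0.00295 over 8 and 8 plates. After adjustment over the 998 genes it was 0.109 and did not pass, where 0.701% of genes passed and 7.41% had a larger difference at 24 hpf at an unadjusted p of 0.05. The 8 hpf difference lay between them, and neither change passed (exact p = 0.516 against 3.5 hpf, adjusted p = 0.926, background 3.91%; exact p = 0.166 against 24 hpf, adjusted p = 0.663, background 3.31%). Within marked cells no genotype difference exceeded the spread, with shares of 29% ± 8.32 for mutant (n = 3) and 34.5% ± 11.8 for wild-type plates (n = 5) at 24 hpf (exact permutation p = 0.518). The exact p was 0.429 at 3.5 hpf and 1 at 8 hpf, where 3 plates against 3 cannot go below 0.1.

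**Figure D3:**
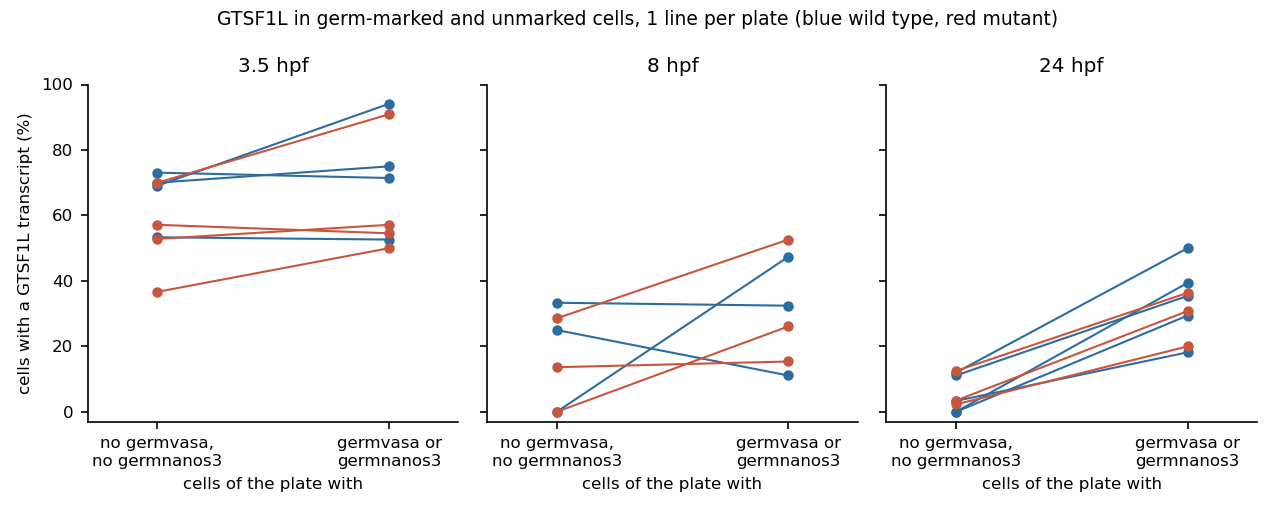
Percent of cells with a GTSF1L transcript (vertical axis) among the cells of a plate without and with germvasa or germnanos3 (horizontal axis) at 3 stages, 1 line per plate, blue for wild type and red for mutant, over plates of at least 10 cells with at least 3 on each side. At 24 hpf all 8 lines rise towards the marked cells, from a mean of 5.58% to 32.4%.

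The Piwi genes were near the limit of detection in embryos. piwil1 was found in 7 of 205 wild-type and 4 of 264 mutant cells at 3.5 hpf, with 1 transcript in each. At 8 and 24 hpf each of the 4 groups held 1 cell with 1 piwil1 transcript. The 5 wild-type plates at 3.5 hpf held 0, 4, 1, 1 and 1 piwil1 transcripts and the mutant plates 1, 1, 0, 2 and 0, so the groups overlapped. Their shares of cells averaged 3.25% ± 2.98 and 1.22% ± 1.35 (n = 5 each), with a log2 difference in level of −0.12 (SE 0.10, limma adjusted p = 1) and an exact permutation p of 0.198 for the share (0.844 adjusted over 1000 genes).

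piwil2 was found in 7 of 205 wild-type and 14 of 264 mutant cells at 3.5 hpf. The wild-type plates held 0, 1, 2, 4 and 1 piwil2 transcripts and the mutant plates 3, 5, 5, 2 and 0. Their shares averaged 3.43% ± 2.80 and 4.83% ± 4, with a log2 difference in level of 0.08 (SE 0.15, limma adjusted p = 1) and an exact permutation p of 0.556 (0.999 adjusted). At 8 hpf piwil2 was found in 2 of 101 wild-type and 6 of 112 mutant cells, with plates of 1, 0, 1 and 0 transcripts against 3, 2, 1 and 0, a log2 difference in level of −0.05 (SE 0.16, limma adjusted p = 1) and an exact permutation p of 0.886 (1 adjusted). The sign depended on single plates. The level difference was 0.15 without wild-type plate 3, where 1 transcript fell on 6 cells, and 0.04 without mutant plate 4. At 24 hpf 1 cell of each genotype held 1 transcript.

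Neither Piwi gene passed a stage contrast. From 3.5 to 8 hpf the log2 difference of piwil1 was −0.17 (SE 0.10, limma adjusted p = 0.223) for the wild type and −0.05 (SE 0.10, limma adjusted p = 0.758) for the mutant. For piwil2 it was 0.06 (SE 0.16, limma adjusted p = 0.882) and −0.06 (SE 0.16, adjusted p = 0.784). From 8 to 24 hpf in the mutant piwil2 had a difference of −0.21 (SE 0.18, limma adjusted p = 0.504). Where every group compared held at most 3 transcripts of a gene, no fold is given. With so few transcripts a fall could hardly be detected at this depth, on a log2 scale that compresses levels below the pseudocount of 0.2. A rise was less limited, since 1 of pld6 in the wild type (below) was called at levels under this pseudocount.

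The meiosis genes were all but absent from embryos. sycp3 had 1 transcript in the 1034 cells of the 26 plates, in wild-type plate 3 at 24 hpf, and dmc1 had none. For dmc1, 0 of 205 and 0 of 264 cells at 3.5 hpf allow shares of up to 1.46% and 1.14%, 0 of 101 and 0 of 112 cells at 8 hpf allow 2.97% and 2.68%, and 0 of 196 and 0 of 156 cells at 24 hpf allow 1.53% and 1.92% (3 cells of the total). These limits are on cells with a dmc1 transcript at this depth, not on cells that express the gene. Both genes had a transcript on fewer than 3 plates and did not enter the tests over genes. The cell with sycp3 also held 1 piwil2 and 1 germvasa transcript. The cell at the same well number of the 2 wpf plate held 1 piwil1 and 1 piwil2 transcript and no sycp3. Whether transcripts passed between wells of the same barcode was not tested.

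All 5 genes were present in cells of the 2 wpf plate. piwil1 was found in 63 of 76 cells (82.9%, exact 95% interval 72.5 to 90.6), with 162 transcripts and up to 9 in a cell. piwil2 was found in 28 cells (36.8%, 26.1 to 48.7) with 46 transcripts, and GTSF1L in 18 cells (23.7%, 14.7 to 34.8) with 19. sycp3 was found in 34 cells (44.7%) with 61 transcripts and up to 5 in a cell, and dmc1 in 19 cells (25%, 15.8 to 36.3) with 39 and also up to 5. The plate mean of piwil1 was 2.13 transcripts per cell, where no earlier plate exceeded 0.0714. That of piwil2 was 0.605, where the highest earlier plate, with 6 cells, had 0.167. That of GTSF1L, 0.25, was below every plate at 3.5 hpf. The embryonic plates also held cells without germvasa or germnanos3. Among cells with either at 24 hpf, each Piwi gene was found in 1 of 119 wild-type and 1 of 67 mutant cells. GTSF1L was found in 35.3% (26.8 to 44.6) and 32.8% (21.8 to 45.4) of them, above its share at 2 wpf. The intervals overlap that of the 2 wpf plate, and the difference was not tested. At a common depth of 250 transcripts the shares at 2 wpf were 63.6% for piwil1, 24.3% for piwil2, 13% for GTSF1L, 30.3% for sycp3 and 18.5% for dmc1. With 1 plate at this stage, stage and plate cannot be told apart, and no mutant plate of this stage was analysed here.

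Most cells of the 2 wpf plate held a Piwi gene, with piwil1 in 63 cells and piwil2 in 28. One or both were found in 67 of the 76 cells, and the other 9 cells all held germvasa. Of the cells with piwil1, 18 held 1 transcript, 21 held 2 and 24 held more. Both Piwi genes were found together in 24 cells, close to the 23.2 that the product of their shares gives. At 2 or more transcripts of each, the Piwi genes shared 9 cells against 5.92. Their Spearman correlation across the 76 cells was 0.21, which ranked 22 among the 632 genes compared with piwil1. Of all genes compared 95% lay below 0.19 for piwil1 and 0.20 for piwil2. Counts per cell are low and share each cell's depth, so a weak correlation is no finding. piwil2 tended to be lower in deeper cells (Spearman −0.35 with transcripts per cell), and so did dmc1 (−0.34) and sycp3 (−0.25). The values for piwil1 (−0.16) and GTSF1L (−0.09) were negative as well, and none of these was tested.

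sycp3 and dmc1 were found in the same cells more often than their shares give. Both were found in 15 cells, where the product of the shares is 8.5, a ratio of 1.76. The other 19 sycp3 cells had no dmc1, 4 cells had dmc1 alone and 38 had neither. Thus 15 of the 19 dmc1 cells and 15 of the 34 sycp3 cells held both. At 2 or more transcripts of each the number was 8 against 2.17, a ratio of 3.68, and at a common depth the ratio was 2.11. The Spearman correlation across cells was 0.49, rank 3 of 632 genes for dmc1 and rank 7 for sycp3. No test was made, since the cells came from 1 plate.

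**Figure D4:**
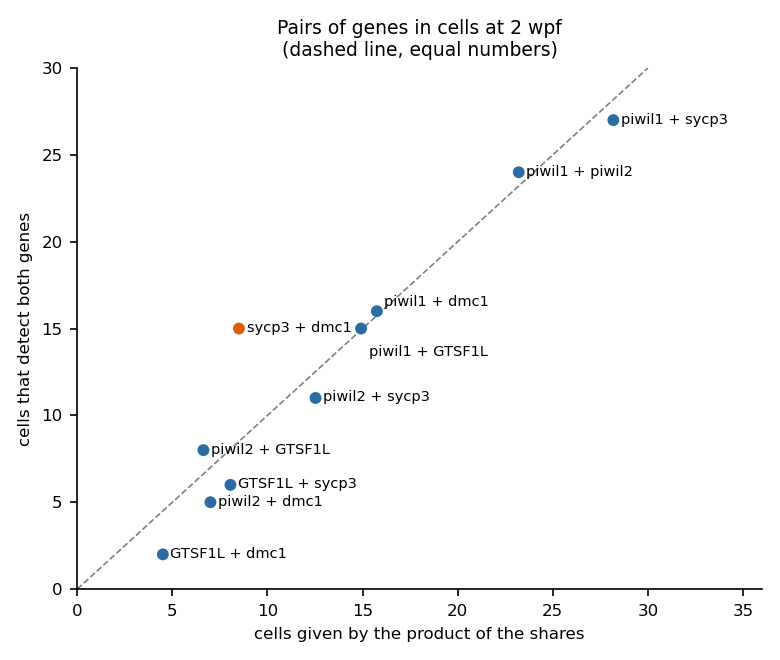
Number of the 76 cells at 2 wpf that detect both genes of a pair (vertical axis) against the number given by the product of the shares (horizontal axis), 1 point per pair, with a dashed line where the numbers are equal. The pair of sycp3 and dmc1 stands above the line, at 15 cells against 8.5, and the pair of GTSF1L and dmc1 lies at 2 against 4.5.

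The Piwi genes showed no clear relation to the meiosis genes from cell to cell, and none was tested. piwil1 and sycp3 were found together in 27 cells against 28.2 by the product of the shares, and piwil1 and dmc1 in 16 against 15.8. piwil2 and sycp3 shared 11 cells against 12.5, and piwil2 and dmc1 5 against 7. At 2 or more transcripts of each gene, piwil1 shared 7 cells with sycp3 against 8.88 and 6 with dmc1 against 6.51. At that threshold piwil2 shared 2 with sycp3 against 1.97 and 0 with dmc1 against 1.45. Spearman correlations of these 4 pairs ran from −0.15 to −0.05, too weak at these counts to show a relation or its absence. GTSF1L was found with dmc1 in 2 cells against 4.5 and with sycp3 in 6 against 8.05. None of the 15 cells with both meiosis genes held GTSF1L, which allows a share of up to 20% of such cells with a transcript (3 cells of the total). The GTSF1L share over all 76 cells was 23.7%, not far above that limit. piwil1 and GTSF1L shared 15 cells against 14.9, and piwil2 and GTSF1L 8 against 6.63.

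Combinations were common at 2 wpf and rare before it. These counts depend on the share of cells with each single gene, and no number expected from those shares was worked out for them. At least 2 of the 5 genes were found in 60 of 76 cells (78.9%) at 2 wpf, 7 cells held 4 of them, and none held all 5. In embryos 9 of 205 wild-type and 12 of 264 mutant cells at 3.5 hpf held 2, as did 1 of 101 and 1 of 112 at 8 hpf and 2 of 196 and 0 of 156 at 24 hpf. Nearly all of these paired GTSF1L with a Piwi gene. At 3.5 hpf piwil1 was found with GTSF1L in 4 of its 7 wild-type cells (4.78 by the product of the shares) and in 4 of its 4 mutant cells (2.24), and piwil2 with GTSF1L in 5 of 7 (4.78) and 8 of 14 (7.85). No embryonic cell of the 6 groups held both Piwi genes. The product of the shares gives only 0.24 (wild type) and 0.21 (mutant) cells at 3.5 hpf and at most 0.0536 in a later group. The absence is therefore no finding. Among the 18 combinations at 2 wpf, piwil1 with piwil2 was the most frequent, in 13 cells, then piwil1 alone and piwil1 with sycp3, in 10 each, and piwil1 with both meiosis genes, in 8. None of the 5 genes was found in 5 cells, all of which held germvasa.

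The genes most like sycp3 and dmc1 across the 2 wpf cells, by Spearman correlation over the 632 genes found in at least 5 cells, were largely the same. For sycp3 they were hmgb1a (0.63), a chromatin protein, e2f5 (0.59), an E2F family transcription factor, and zglp1 (0.59), a zinc finger factor known in mouse for its role in oocyte fate. For dmc1 they were e2f5 (0.57), hmgb1a (0.53) and sycp3 (0.49). Of all genes compared 95% lay below 0.29 for sycp3 and 0.26 for dmc1. zglp1 averaged 2.13 transcripts in the 15 cells with both meiosis genes, 1.16 in those with sycp3 alone and 0.184 in those with neither. e2f5 averaged 1.87, 0.842 and 0.132 in the same cells, and hmgb1a 3, 1.47 and 0.579. The kinase gene cdk2, named after its values were seen, averaged 1.87, 1.05 and 0.158. These genes were chosen for likeness, so the averages are a description.

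The cells with both meiosis genes were not deeper than the rest, with median depths of 458 transcripts against 480 with sycp3 alone and 483 with neither. piwil1 averaged 1.93, 2.11 and 2.26 transcripts in those classes, and germvasa 2, 1.95 and 2.61. The synaptonemal complex gene syce2 was found in 8 of the 15 cells with both, in 6 of 19 with sycp3 alone and in 7 of 38 with neither. buc, which organizes the oocyte Balbiani body, was found in 4 of 15, 6 of 19 and 2 of 38, and pld6, the mitochondrial piRNA processing nuclease Zucchini in fly, in 8 of 15, 8 of 19 and 13 of 38. Not all listed genes went this way. germdazl was found in 6 of 15, 8 of 19 and 15 of 38, nearly the same share in each class. piwil2 was found in 4 of 15, 7 of 19 and 16 of 38, and parn in 0 of 15, 1 of 19 and 3 of 38. Ribosomal protein genes took a median of 24.2% of transcripts in the cells with both and 36.8% in those with neither, and mitochondrial genes 12.3% and 8.96%. The part of these shares in the pattern of sycp3 and dmc1 was not tested.

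**Figure D5:**
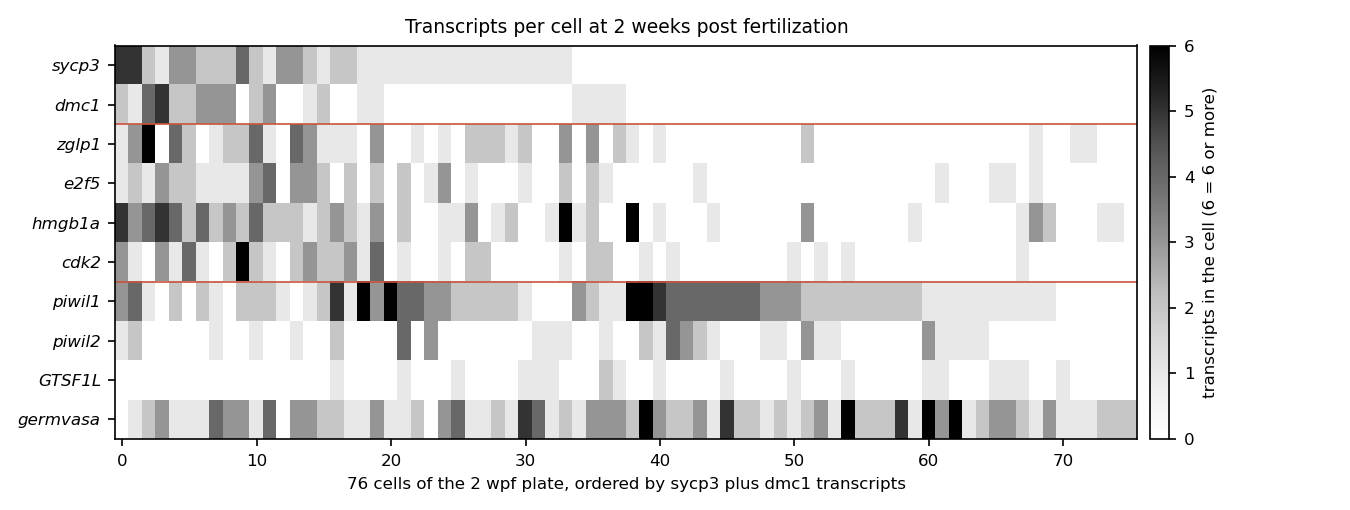
Transcripts per cell (grey scale, 0 to 6 or more) of sycp3, dmc1, their most similar genes zglp1, e2f5 and hmgb1a with cdk2, the piRNA genes and germvasa (rows) in the 76 cells of the 2 wpf plate (columns), ordered by sycp3 plus dmc1 transcripts. The 4 genes under sycp3 and dmc1 are dark towards the left, where both are present, while piwil1, found in 63 cells, runs along the whole row.

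For piwil1, piwil2 and GTSF1L the most similar genes across the 2 wpf cells were weaker and often rare. They were si:ch211-197h24.6 (0.43, found in 7 cells), s100a1 (0.34, found in 5 cells) and arf1l (0.34) for piwil1. For piwil2 they were s100a1 (0.42), a gene with a clone name (0.42) and cnbpa (0.34, found in 5 cells), and for GTSF1L ISCU (0.40), safb (0.34) and hspd1 (0.33). Over the 27 plates GTSF1L was most like the spliceosomal gene snrpd3 (Pearson 0.89 on log2 plate means), BX465186.1 (0.87) and zgc:77112 (0.86), and without the 2 wpf plate these were 0.89, 0.86 and 0.86. For piwil1 and piwil2 the plate correlations fell without the 2 wpf plate: piwil1 with sycp3 was 0.98 with it and −0.14 without it, piwil1 with zgc:194189 0.99 and 0.56, and piwil2 with zgc:194189 0.84 and 0.20. sycp3 with tuba7l was 1 on both sets of plates to 2 decimals, and without the 2 wpf plate that value comes from 1 plate of 24 hpf, the single plate with sycp3. dmc1 had no transcript outside the 2 wpf plate and no correlation without it. For sycp3 the nearest genes were dmc1, tuba7l and cdkn2d, for dmc1 sycp3, cdkn2d and tuba7l, and for piwil2 zgc:194189, cdkn2d and dmc1.

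Some other piRNA pathway genes were called higher and some lower between stages. With 8 genes these counts are too few to set the list apart from the shares of all genes called. The share of wild-type cells with germvasa or germnanos3 also went from 26.8% at 3.5 hpf to 70.3% at 8 hpf. Its part in these changes was not tested. Of a list of 31 genes 8 were in the table and tested, 3 of them members here. From 3.5 to 8 hpf in the wild type 2 of the 8 rose, the germ granule gene germtdrd7 (log2 1.28, SE 0.32, limma adjusted p = 0.00281) and germvasa (1.78, SE 0.39, adjusted p = 0.000811). In the same contrast 2 fell, GTSF1L and the poly(A) ribonuclease gene parn (−1.22, SE 0.19, adjusted p = 1.35e-05). The list's median was −0.15 where the median of all genes was −0.01. In that contrast 10.2% of all genes were called higher and 21.1% lower. In the mutant germtdrd7 rose (1.1, SE 0.32, limma adjusted p = 0.00975), while GTSF1L, parn (−1.49, adjusted p = 6.46e-07) and the helicase gene ddx39ab (−1.54, adjusted p = 0.00575) fell. There 10.6% of all genes were called higher and 18.7% lower. These shares of all genes are also the background for the germ cell genes over the same interval. Of the 11 germ cell genes tested, 5 rose and 2 fell in wild-type plates, and 3 rose and 2 fell in mutant plates. Among those that rose in both was germnanos3, by 2.16 (wild type) and 1.91 (mutant) on the log2 scale (limma adjusted p = 0.02 and 0.0397), and those that fell in both were buc and h1m. From 8 to 24 hpf pld6 rose (0.45, SE 0.14, limma adjusted p = 0.0188) and germtdrd7 fell (−1.33, SE 0.32, adjusted p = 0.002) in the wild type, where 22.2% and 6.1% of all genes were called in those directions. The call for pld6 rests on few transcripts. It was found in 0 of 101 wild-type cells at 8 hpf and in 14 of 196 at 24 hpf. Its mean over the 24 hpf plates was 0.0805 transcripts per cell (0 to 0.186), below the pseudocount. No gene of the piRNA pathway list passed in the mutant. By genotype none of the 8 passed at any stage. The smallest unadjusted p were those of germvasa at 8 hpf (−1.31, limma adjusted p = 0.364) and of pld6 at 24 hpf (−0.41, adjusted p = 1).

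Of the meiosis list 4 genes were in the table, sycp3, dmc1, syce2 and ccna1. Of these syce2 and ccna1 entered the tests, and syce2 passed none. The cyclin gene ccna1, known in mouse for the male meiotic divisions, fell from 3.5 to 8 hpf. In the wild type it had 1.61 ± 0.80 transcripts per cell at 3.5 hpf (n = 5) and 0.0872 ± 0.0688 at 8 hpf (n = 4), and fell by 2.48 on the log2 scale (SE 0.36, limma adjusted p = 4.63e-06). In the mutant it had 1.92 ± 0.85 and 0.0208 ± 0.0417, and fell by 3.17 (limma adjusted p = 7.01e-08). These contrasts called 21.1% (wild type) and 18.7% (mutant) of all genes lower. At 2 wpf ccna1 was at 0 in all 76 cells, where sycp3, dmc1 and syce2 were found in 34, 19 and 23 cells. syce2 was found in 5 cells of each genotype at 3.5 hpf, in none at 8 hpf and in 4 wild-type cells and 1 mutant cell at 24 hpf.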

How the data were processed

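Single cells were sorted into Trizol and their RNA amplified with CEL-seq and read as paired ends (NextSeq), per the labels' protocols. Per the submitters' processing notes, BWA and Zv9 were used. How reads were counted and cells chosen is not given in the sources used here. In the table the authors deposited the unit was named signal: whole numbers plus 0.1 (tolerance 1e-06), so 0.1 was subtracted and no count model was used. It held 1017 genes, 1203 cells and 28 libraries.

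The 26 plates of 6 groups were tested. A plate of 45 cells labelled with both 8 and 24 hpf, and 48 wells of mutant plate 1 at 8 hpf named as heterozygous, entered no comparison; 1 used column of that plate carries the well number 151, beyond the 96 listed barcodes. Values were averaged per plate. Genes with a transcript in at least 3 plates (1000) entered limma 3.58.1 in R 4.3.3 (trend, robust, 6 groups in 1 fit, Benjamini-Hochberg, threshold 0.05) on log2(mean + 0.2). Shares of cells were compared by exact permutation over plates, and marked with unmarked cells by exact sign flips (numpy 2.4.6), both run for all genes. Thinned shares are expected values at 250 transcripts drawn without replacement (scipy 1.17.1), and 18 shallower cells were left out. Doublets were not called. The limma fit, the permutation test and the thinning were checked on simulated data, and the sign-flip test was not. For limma, changes were simulated only in genes with a mean of at least 0.2 transcripts per cell. The Piwi genes and pld6 lay below this in embryos, so the check did not cover changes in them. Alternatives covered the pseudocount, filter, scaling, weights, plates left out and detection threshold.

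Named genes were the 5 members, the 3 most similar to each across plates and across 2 wpf cells, and listed genes past the threshold or of smallest p. The members and lists were chosen with earlier results of these data known. No coordinates or sequences were used.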

Additional observations from a re-analysis of the deposited data

Results flagged for a closer look

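Among the 16 combinations of gene and group with 4 or 5 plates that held a transcript, 5 had 1 plate flagged as far from the others. The rule compared the gap to the nearest plate with the range of the plates. Each flagged plate held a single transcript, with the other plates of the group at 0. Such a group is always flagged by this rule, so the number of flags cannot be set against a rate expected by chance. For piwil1 these were wild-type plate 2 at 8 hpf (0.0204 transcripts per cell), mutant plate 1 at 8 hpf (0.0208) and wild-type plate 2 at 24 hpf (0.05). For piwil2 it was wild-type plate 3 at 24 hpf (0.0175), and for sycp3 the same plate (0.0175), where both transcripts lay in 1 cell.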

How the results depend on the processing

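The fall of GTSF1L from 3.5 to 8 hpf passed the test under all 8 settings per genotype and without each of the 9 plates per genotype, with adjusted p of at most 0.00464 (wild type) and 0.0396 (mutant). Several of the other differences changed sign. For GTSF1L the genotype difference at 8 hpf was −0.26 with plates weighted by cells and −0.092 without plates under 10 cells, and −0.077 to 0.38 without 1 plate. Its 24 against 8 hpf difference in the wild type was −0.096 with plates rescaled to 1 total, −0.14 weighted and −0.087 without small plates, and −0.087 to 0.23 without 1 plate. Its difference in share of cells at 8 hpf was −3.43 points without small plates and −0.291 to 11.5 without 1 plate, and at 3.5 hpf −8.64 to 0.312. For piwil2 the genotype difference was 0.22 weighted and 0.23 without small plates at 8 hpf, and without 1 plate −0.14 to 0.15 at 8 hpf and −0.0018 to 0.15 at 3.5 hpf. Its 8 against 3.5 hpf difference in the wild type was −0.017 rescaled, −0.14 weighted, −0.19 without small plates and −0.13 to 0.16 without 1 plate, and in the mutant 0.019 without small plates and −0.14 to 0.019 without 1 plate. Its share difference was −0.00452 points at 2 transcripts and −0.106 to 2.61 without 1 plate at 3.5 hpf, and 3.63 without small plates and −3.23 to 2.33 without 1 plate at 8 hpf. The cause of these sign changes was not tested.

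Shares of cells depend on depth and threshold. GTSF1L moved to 52.2% (wild type, 3.5 hpf), 15.7% (wild type, 8 hpf) and 13% (2 wpf) at 250 transcripts. At 2 or more transcripts it was 33.8% and 32% at 3.5 hpf, 3.55% and 5.5% at 8 hpf, 4.96% and 2.46% at 24 hpf (wild type, mutant) and 1.32% at 2 wpf. At 2 wpf piwil1 was 63.6% thinned and 59.2% at 2 or more, piwil2 24.3% and 13.2%, sycp3 30.3% and 19.7%, and dmc1 14.5% at 2 or more. The ratio of sycp3 with dmc1 rose to 3.68 at 2 or more.

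The main fit did not pair plates by number. Deviations of same-numbered plates correlated above 0.1 in 5 of 12 pairs, with correlations from −0.39 to 0.30. Plates of different numbers were not compared in this way, so whether same-numbered plates share a batch was not tested. With the plate number as a replicate block the GTSF1L genotype differences were −0.18, 0.16 and −0.39 with adjusted p of 1, and 0 and 1 genes were called at 3.5 and 24 hpf in place of 2 and 3. With the compared plates alone these were 0 and 0. At 24 hpf 1 gene was called with the filter on plate means and without each mutant plate. For 8 against 3.5 hpf in the mutant 476 genes in place of 293 were called weighted, and for 24 against 8 hpf in the mutant 109 rescaled, 8 with the compared plates alone and 51 without mutant plate 1 in place of 170. Single plates left out gave 1 or 2 calls where there were none at 8 hpf and in the genotype differences of change.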

Other observations

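The wells named as heterozygous, which are labelled with the mutant plate 1 at 8 hpf, held 48 cells with 4 piwil2, 6 GTSF1L and 1 sycp3 transcripts, and no piwil1 or dmc1. Their sycp3 cell also held 2 germvasa transcripts. The plate labelled with both 8 and 24 hpf held 45 cells with 11 GTSF1L and 1 piwil2 transcripts and none of the other 3 genes. These cells entered no comparison.

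The tubulin gene tuba7l, among the genes most like sycp3 over plates, had its transcripts before 2 wpf on the same wild-type plate 3 at 24 hpf that held the single sycp3 transcript, but not in that cell.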
